A study of Mus musculus with 9 samples.

Results

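The genes described here are those of the lysosome that a naming rule picked from the count table: every symbol that begins with Atp6v0 or Atp6v1 (subunits of the V-ATPase, the proton pump of lysosomes and other acidic vesicles), every cathepsin symbol (Cts with 1 further letter), and 14 named genes of the lysosomal membrane and lumen, of autophagy cargo and of the MiT/TFE transcription factors. The rule uses names and no measured value. It found 55 of the 24444 symbols, namely 18 cathepsins, 10 symbols of the membrane sector V0, 13 of the cytosolic sector V1 and the 14 others. Of these 55, 44 had enough counts for a test and 11 did not, among them 4 with no count in any library.

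The study asked what MYC adds to a mouse model of WNT medulloblastoma. RNA of 9 libraries was sequenced, 3 in each of 3 groups. The control group was normal cerebellum of CD1-nude mice, a strain that lacks a thymus. The EV and MycT58A groups were tumours in the brains of CD1-nude hosts, grown from implanted cells that carried Blbp-Cre with the alleles Ctnnb1Ex3flx/flx, Trp53flx/flx and Pik3caE545K +/flx, plus either the vector labelled EV or MycT58A, a form of Myc whose protein is degraded more slowly. Tumours of both groups therefore share activated beta-catenin, loss of p53 and mutant Pik3ca, and Blbp-Cre confines recombination to cells in which the Blbp promoter was active. GFP-positive tumour regions were dissected, so host cells inside those regions were part of the material, and no age is given. The series calls the 3 libraries of a group biological replicates, but separate cell preparations are not stated. P-values therefore reflect only how much these libraries vary, part of which may be technical.

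Lysosomes break down proteins, lipids and sugars delivered by endocytosis and autophagy. The V-ATPase acidifies them: its V1 sector hydrolyses ATP and turns a rotor that drives protons through V0. Several subunits have tissue-specific isoforms, some of them enriched in neurons. Cathepsins are the main lysosomal proteases, and microglia and other macrophages are known for high levels of many of them. TFEB, TFE3 and MITF bind CACGTG motifs near the start sites of many lysosomal genes and activate them, and MYC with its partner MAX binds the same 6 letters.

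Promoter windows from the RefSeq-based table (GRCm38.p6, 250 bases before to 50 bases after the start) matched 44 of the 55 symbols. The letters CACGTG, which read the same on both strands, stood in the windows of 13 of these 44 genes (29.5%), and in 8.09% of the 27025 genes of the table (7.15% of all 32851 windows). The longer form TCACGTGA, which contains it, stood in 7 of the 44 (15.9%) and in 1.12% of all genes (0.974% of windows). The 13 genes were Atp6v0b, Atp6v0d1, Atp6v0e, Atp6v1a, Cln3, Ctsa, Ctsd, Ctsf, Ctsl, Gaa, Glb1, Lamp1 and Mcoln1. Each of the 6 sequences below ends at the last base before the start and shows the match in capitals. They are shown because they cover the pump, the proteases, the membrane and the calcium channel, and they were chosen after the matches were known.
Lamp1 (chr8:13159081-13159160, + strand): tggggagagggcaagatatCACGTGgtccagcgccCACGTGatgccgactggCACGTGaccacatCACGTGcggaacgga
Mcoln1 (chr8:3500429-3500518, + strand): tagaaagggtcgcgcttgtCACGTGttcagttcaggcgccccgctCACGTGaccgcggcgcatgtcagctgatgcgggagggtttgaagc
Atp6v0b (chr4:117887330-117887389, - strand): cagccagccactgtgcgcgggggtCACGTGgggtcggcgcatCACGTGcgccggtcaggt
Atp6v1a (chr16:44139260-44139409, - strand): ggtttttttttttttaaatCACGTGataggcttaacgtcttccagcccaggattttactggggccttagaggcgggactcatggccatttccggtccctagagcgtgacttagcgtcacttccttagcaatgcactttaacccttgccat
Ctsd (chr7:142387828-142387947, - strand): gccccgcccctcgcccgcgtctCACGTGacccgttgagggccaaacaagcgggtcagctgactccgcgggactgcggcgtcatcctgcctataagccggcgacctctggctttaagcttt
Ctsa (chr2:164833713-164833772, + strand): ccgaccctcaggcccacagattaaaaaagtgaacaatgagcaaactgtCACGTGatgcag
Lamp1 carried 4 matches within 61 bases of its start, Mcoln1 and Atp6v0b carried 2, and the matches of Atp6v1a, Ctsd and Ctsa and 1 of those of Mcoln1 shown here are of the longer form. Ctsa and Ctsd each have 1 further match in the window outside the stretch printed. A match is a run of letters and not evidence of binding, which was not measured here.

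Total counts per library ranged from 16631523 to 30410089. Levels are given as CPM, counts scaled to a common library total with TMM factors. Myc was at 0.94, 1.59 and 32.0 CPM in control, at 360, 19.9 and 762 in EV tumours and at 918, 859 and 727 in MycT58A tumours. By Myc the library labelled EV replicate 3 thus lay within the MycT58A range, against its label. Pvt1, the gene next to Myc, was at 260.1 CPM in that library, 96.4 in EV replicate 1 and 3.74 in EV replicate 2, and at 4.86 to 8.27 in MycT58A tumours and 5.39 to 7.04 in control, so by Pvt1 the same library lay far from the MycT58A range. Called changes that this library moves by over 1.5 times are given with and without it. Each control library carried cerebellar markers (Gabra6 at 522 to 888 CPM), although the growth protocol speaks of cortex, and tumours held at most 5.92 CPM of Gabra6. The summed level of 12 neuron markers was 11913 to 14443 CPM in control and 43.7 to 147 in tumours. The summed level of 12 pericyte and fibroblast markers was 418 to 503 CPM in control, 3501, 14407 and 8296 in EV tumours and 1476 to 1824 in MycT58A tumours. In bulk tissue, fewer cells of a type and less RNA per cell cannot be told apart.

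Against control, EV tumours had 16 of the 44 tested lysosomal genes higher and 15 lower, and MycT58A tumours had 8 higher and 23 lower (edgeR quasi-likelihood test, adjusted p under 0.05). Among all 15171 genes tested, 30.7% were called higher and 26.3% lower in EV tumours (57.0% in either direction), and 31.2% and 31.0% in MycT58A tumours (62.2%), so shares of this size are common in these comparisons. Split by role, the genes went different ways: most V-ATPase subunits fell in both kinds of tumour, while most called cathepsins rose in EV tumours. The median log2 fold change of the 44 was -0.03 in EV tumours and -0.77 in MycT58A tumours, beside 0.14 and -0.02 over all genes. The comparisons with control share the 3 control libraries.

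**Figure D1:**
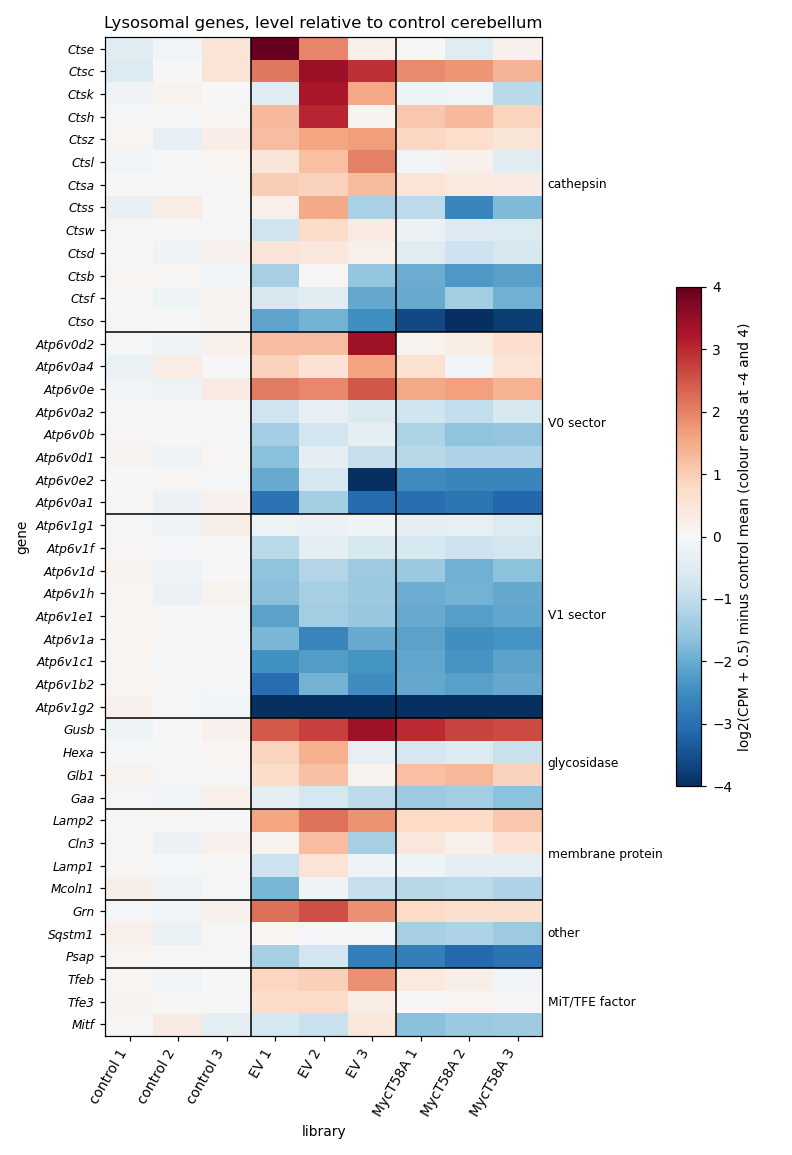
Level of each of the 44 tested lysosomal genes (rows, grouped by role) in each of the 9 libraries (columns), as log2(CPM + 0.5) minus the mean of the 3 control libraries, with the colour scale ending at -4 and 4. The V1 rows other than Atp6v1g1 are blue in all 6 tumour libraries, Gusb, Lamp2, Grn, Ctsc and Atp6v0e are red in all 6, and the EV libraries differ among themselves more than the MycT58A libraries do.

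V-ATPase transcripts took 0.446%, 0.423% and 0.438% of all counts in the control libraries, 0.107%, 0.180% and 0.137% in EV tumours and 0.110%, 0.0958% and 0.102% in MycT58A tumours. All 6 tumour libraries lay below all controls. Of the 17 subunit genes tested, 12 fell and 3 rose in EV tumours (70.6% and 17.6%, beside 26.3% and 30.7% of all genes). In MycT58A tumours 13 fell and 1 rose (76.5% and 5.88%, beside 31.0% and 31.2% of all genes). Their median log2 fold change was -1.41 in EV tumours and -1.68 in MycT58A tumours, beside 0.14 and -0.02 over all genes. The 12 falls in EV tumours were 8 with only the EV and control libraries in the fit or without any 1 control library. In the same libraries the neuron markers were lower as given above, all 12 of 12 called in both comparisons. So were oligodendrocyte markers, 6 of 6 in both, and astrocyte and Bergmann glia markers, 5 of 7 in EV and 6 of 7 in MycT58A tumours. The part of these markers in the fall of the subunits was not tested.

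In the V1 sector 8 of 9 tested genes fell in each kind of tumour. Atp6v1a, the catalytic subunit that binds and hydrolyses ATP, was at 690.2, 653 and 637 CPM in control, 187, 106 and 163 in EV tumours and 148, 119 and 128 in MycT58A tumours. Its tumour values did not overlap control, and the fall was 4.35-fold in EV tumours (log2 fold change -2.12 ± 0.24 SE, edgeR adjusted p = 0.000177), and with MycT58A it was 5.01-fold (-2.32 ± 0.24 SE, edgeR adjusted p = 0.000103). Atp6v1b2, the brain form of the other ATP-binding subunit, was at 638, 592 and 578 CPM in control, 72.8, 161 and 108 in EV tumours and 145, 133 and 146 in MycT58A tumours. It fell 5.29-fold and 4.26-fold. Atp6v1c1, the subunit that ties V1 to V0 and whose binding is regulated, had the smallest p of the sector, with 243, 218 and 229 CPM in control, 42.3, 48.2 and 43.9 in EV tumours and 53.6, 44.4 and 52.3 in MycT58A tumours. The 6 tumour libraries were close to each other, and the falls were 5.14-fold (edgeR adjusted p = 2.21e-05) and 4.60-fold (edgeR adjusted p = 2.81e-05).

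The stalk subunits Atp6v1e1, Atp6v1d, Atp6v1h and Atp6v1f also fell in both. Atp6v1h, the regulatory subunit, was at 212, 170.4 and 219 CPM in control, 61.6, 78.3 and 70.8 in EV tumours and 49.9, 53.9 and 47.4 in MycT58A tumours, a fall of 2.86-fold and 3.98-fold (edgeR adjusted p = 0.000204 and 5.69e-05). Its groups did not overlap. Atp6v1e1 was at 392, 364 and 354 CPM in control, 84.1, 141 and 129 in EV tumours and 91.2, 79.2 and 87.5 in MycT58A tumours. Atp6v1d, part of the rotor, fell from 144 to 175 CPM in control to 51.8 to 71.5 in EV tumours and 41.9 to 57.3 in MycT58A tumours. Atp6v1f was the mildest of the called V1 genes, 1.58-fold lower in EV tumours and 1.67-fold lower in MycT58A tumours. Its call in EV tumours was lost without any 1 control library (log2 fold change -0.66 to -0.62, edgeR adjusted p 0.055 to 0.0698), and that in MycT58A tumours without MycT58A replicate 2 (-0.69, 0.0504).

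The peripheral stalk subunit G showed the widest contrast between isoforms. Atp6v1g2 (chr17:35233660-35238767 in mm10, + strand), the isoform known from neurons, was at 430.2, 362 and 349.6 CPM in control, 4.32, 6.5 and 1.3 in EV tumours and 7.45, 2.63 and 4.01 in MycT58A tumours. It was 93.5-fold lower in EV tumours (log2 fold change -6.55 ± 0.67 SE, edgeR adjusted p = 0.000115) and, with MycT58A, 80.9-fold lower (-6.34 ± 0.66 SE, edgeR adjusted p = 0.000105), the lowest log2 fold changes among the 44 genes in both comparisons. Atp6v1g1, the widely expressed isoform, was at 125, 122 and 156 CPM in control, 115, 113 and 122 in EV tumours and 105, 106 and 91.8 in MycT58A tumours. It was the V1 gene that passed in neither comparison (log2 fold change -0.20 ± 0.16 SE and -0.41 ± 0.16 SE, edgeR adjusted p = 0.304 and 0.0511). Per kilobase of exon, Atp6v1g2 had 152 ± 17.3 (SD, n = 3) and Atp6v1g1 119 ± 16.5 CPM per kilobase in control, where SDs over libraries overlap but do not rank 2 genes within a library. In EV tumours the same values were 1.61 ± 1.04 and 103 ± 4.21, and in MycT58A tumours 1.87 ± 0.989 and 89.1 ± 7.16, which made Atp6v1g1 the highest of the 17 tested subunit genes in both.

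In the V0 sector the genes went both ways. Atp6v0a1, the a subunit of synaptic vesicles and neuronal lysosomes, was at 645, 529 and 699 CPM in control, 79.1, 242 and 72.9 in EV tumours and 75.5, 83.9 and 70.6 in MycT58A tumours. EV replicate 2 was the highest tumour library and still lay below control. The fall was 4.75-fold in EV tumours (edgeR adjusted p = 0.00316) and, with MycT58A, 8.14-fold (edgeR adjusted p = 0.00067), and without EV replicate 2 it was 8.17-fold in EV tumours. Atp6v0a2, the a subunit of Golgi and endosomes, was at 98.5, 95.8 and 103 CPM in control, 56.7, 78.8 and 65.5 in EV tumours and 56.3, 49.6 and 63.7 in MycT58A tumours, only 1.48-fold and 1.75-fold lower. Atp6v0d1 held 238 to 286 CPM in control, 82.2, 205 and 139 in EV tumours and 112 to 122 in MycT58A tumours, and Atp6v0b, a proteolipid of the rotor ring, 140.0 to 152, then 56.5, 86.6 and 112, then 47.3 to 60.5. The calls of Atp6v0a2, Atp6v0d1 and Atp6v0b in EV tumours were each lost without any 1 control library, that of Atp6v0a2 also without EV replicate 1 and that of Atp6v0d1 also without the library labelled EV replicate 3, at edgeR adjusted p of 0.0511 to 0.0862. In those fits the log2 fold changes were -0.56 to -0.46 for Atp6v0a2, -0.95 to -0.82 for Atp6v0d1 and -0.77 to -0.72 for Atp6v0b.

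Subunit e, a small membrane protein of V0, changed isoform balance. Atp6v0e2 was at 313, 337 and 305 CPM in control, 78.9, 199 and 17.1 in EV tumours and 55.5, 51.8 and 51.8 in MycT58A tumours. Every tumour library was below control, but with the spread of the EV libraries it passed only in MycT58A tumours (6-fold lower, edgeR adjusted p = 0.0106) and not in EV tumours (log2 fold change -1.70 ± 0.67 SE, edgeR adjusted p = 0.0567). Without EV replicate 2 Atp6v0e2 was 6.57-fold lower in EV tumours and passed (edgeR adjusted p = 0.00375), and it also passed without the library labelled EV replicate 3 (log2 fold change -1.19, edgeR adjusted p = 0.0187). Atp6v0e moved the other way, with 15.9, 14.8 and 21.8 CPM in control, 74.6, 66.4 and 98.9 in EV tumours and 50.9, 54.8 and 46.2 in MycT58A tumours. It rose 4.57-fold (edgeR adjusted p = 0.000144) and 2.89-fold (edgeR adjusted p = 0.000596), the single V-ATPase gene called higher in both.

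Ratios of 2 isoforms within a library do not depend on scaling between libraries. Of 8 isoform pairs, 6 had at least 30 counts for each gene over the 9 libraries. The log2 ratio of Atp6v1g2 to Atp6v1g1 was 1.5 ± 0.31 (SD, n = 3) in control, -5.12 ± 1.25 in EV tumours and -4.55 ± 0.76 in MycT58A tumours. That of Atp6v0e2 to Atp6v0e was 4.20 ± 0.36 in control, -0.29 ± 2.08 in EV tumours and 0.07 ± 0.13 in MycT58A tumours. For Atp6v0a2 over Atp6v0a1 the values were -2.65 ± 0.16, -0.75 ± 0.77 and -0.44 ± 0.31. Tcirg1, the a3 subunit known from osteoclasts, rose against Atp6v0a1 from -6.53 ± 0.04 to -2.39 ± 1.33 and -2.40 ± 0.22, being itself higher in EV tumours (16.0 to 24.7 CPM, control 5.67 to 7.79, edgeR adjusted p = 0.000928). In these 4 pairs each tumour group lay apart from control with no overlap, which gives an exact two-sided permutation p = 0.1, the smallest that 3 against 3 libraries allow (0.138 adjusted over the 18 comparisons). The other 2 pairs, Atp6v0d2 over Atp6v0d1 (-12.09 ± 1.35 in control, -6.42 ± 1.64 in EV tumours and -9.06 ± 0.91 in MycT58A tumours) and Atp6v1c2 over Atp6v1c1 (-12.58 ± 1.43, -6.26 ± 1.99 and -7.48 ± 0.55), were also apart from control at this p, on very few control counts. Between MycT58A and EV tumours the first 4 ratios differed by -0.01 to 0.57 and that of Atp6v1c2 by -1.22, with exact permutation p of 0.6 to 1. The ratio of Atp6v0d2 to Atp6v0d1 differed by -2.65, MycT58A being lower with no overlap (exact permutation p = 0.1), and by -1.78 without the library labelled EV replicate 3.

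**Figure D2:**
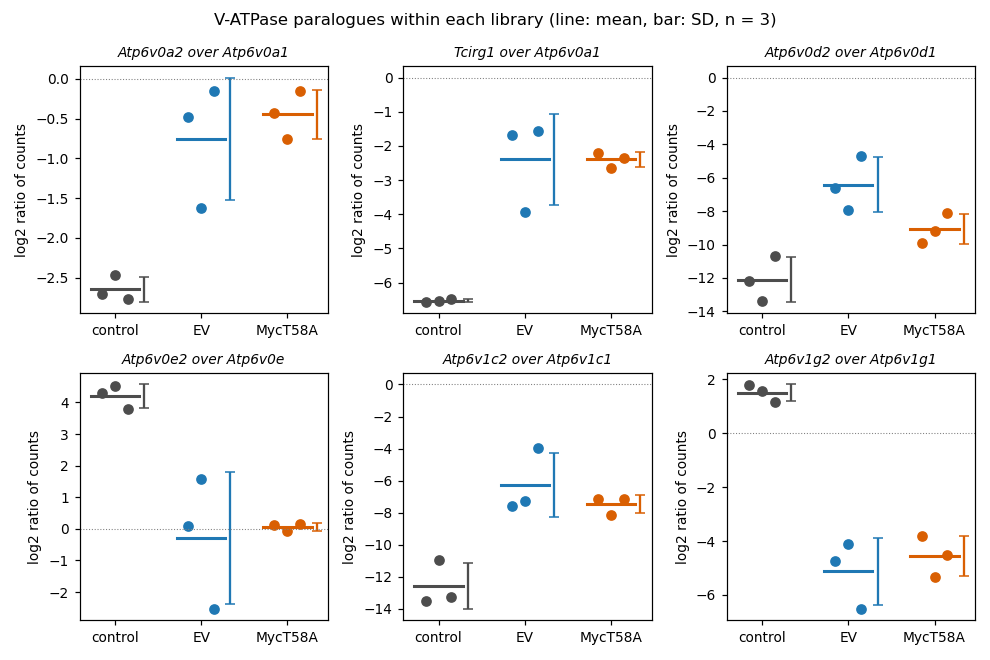
Log2 ratio of the counts of 2 V-ATPase isoforms within each library (points), with 0.5 counts added to each gene, by group, with the mean as a line and the SD of 3 libraries as a bar. The ratio of Atp6v1g2 to Atp6v1g1 is between 1.16 and 1.78 in control and below -3.8 in all 6 tumour libraries, and the control values of Atp6v0d2 and Atp6v1c2 rest on 4 and 2 counts.

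Isoforms that are known from kidney, bone and other specialised tissue were low throughout, and in these genes the library labelled EV replicate 3 stood out. Atp6v0d2, the osteoclast and epithelial d subunit, was at 0.0409, 0 and 0.14 CPM in control (4 counts in all), 0.822, 0.807 and 5.39 in EV tumours and 0.108, 0.177 and 0.384 in MycT58A tumours. It was called higher in EV tumours (log2 fold change 5.18 ± 1.20 SE, edgeR adjusted p = 0.00645), and without the library labelled EV replicate 3 the log2 fold change was 3.70. Atp6v0a4, a kidney form, was at 0.0817, 0.354 and 0.187 CPM in control, 0.822, 0.552 and 1.64 in EV tumours and 0.576, 0.142 and 0.512 in MycT58A tumours. Its rise in EV tumours (log2 fold change 2.24 ± 0.76 SE, edgeR adjusted p = 0.0324) was 2.90 without control replicate 2 and was lost without control replicate 1 or 3, the library labelled EV replicate 3 or MycT58A replicate 3 (1.74 to 2.25, adjusted p 0.0503 to 0.103). When every library of a group had to reach 1 CPM, neither was tested and 1 of the 3 rises was left.

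Atp6v1c2 and Atp6v1g3 had too few counts for a test. Atp6v1c2 was at 0.205, 0.297 and 2.78 CPM in EV tumours and at most 0.36 elsewhere. All 281 counts of Atp6v1g3, a kidney-type G subunit, fell in the library labelled EV replicate 3 (15.9 CPM), and 0 counts in the other 8 libraries allow up to 0.0987 to 0.142 CPM (3 counts of the unscaled total, counting error only). That library also held 129 CPM of Krt5, 43.8 of Krt14 and 29.9 of Epcam, epithelial genes that reached at most 14.2, 1.40 and 1.40 CPM elsewhere. They were picked from 6 epithelial markers after their values were seen, and Krt8, Krt18 and Cdh1 are not given singly. All 6 summed to 260 CPM in that library, 17.5 and 24.9 in EV replicates 1 and 2, 43.1 to 61.5 in MycT58A tumours and 8.99 to 20.4 in control. The part of these genes in the values above was not tested. Atp6v0c, the main proteolipid of the rotor ring, had 7 counts over all 9 libraries. The mouse genome holds near-identical copies of this gene, so its value is uncertain, and its copy Atp6v0c-ps2 was listed at 0 as well. Atp6v1b1 and Atp6v1e2, known from kidney and testis, had 2 and 6 counts.

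Cathepsin transcripts took 0.199%, 0.200% and 0.204% of all counts in control, 0.187%, 0.301% and 0.220% in EV tumours and 0.106%, 0.091% and 0.0913% in MycT58A tumours. Of 13 cathepsins tested, 7 rose and 1 fell in EV tumours (53.8% and 7.69%, beside 30.7% and 26.3% of all genes). In MycT58A tumours 3 rose and 5 fell (23.1% and 38.5%, beside 31.2% and 31.0% of all genes). The counts in MycT58A tumours lie near the shares of all genes and are no result about cathepsins. The median log2 fold change was 1.07 in EV tumours and -0.52 in MycT58A tumours, beside 0.14 and -0.02 over all genes. The count of 7 was 4 with limma-voom or without control replicate 1 or 2, and the count of 3 was 1 with library size alone and without control replicate 1 or 2 or MycT58A replicate 1 or 2. The count of 5 was 3 without control replicate 3 or without MycT58A replicate 2 or 3. The placental cathepsins Ctsj, Ctsm and Ctsr had no counts, and Ctsq and Ctsg, a protease of neutrophils and mast cells, had 1 count each.

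Markers of microglia and macrophages moved along with several of these genes. The summed level of 19 such markers was 230, 266 and 299 CPM in control, 537, 819 and 527 in EV tumours and 203, 93.4 and 141 in MycT58A tumours, and none of the 19 was at 0 in any library. In the library labelled EV replicate 3 Tmem119 alone held 338 CPM, and the other 18 summed to 189 there, below the control libraries (217 to 287). Of the 19 markers, 9 were called higher in EV tumours against control (47.4%, beside 30.7% of all genes). In MycT58A tumours against control 3 were called lower (15.8%), a share below the 31.0% of all genes. The part of these markers in the cathepsin values was not tested.

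**Figure D3:**
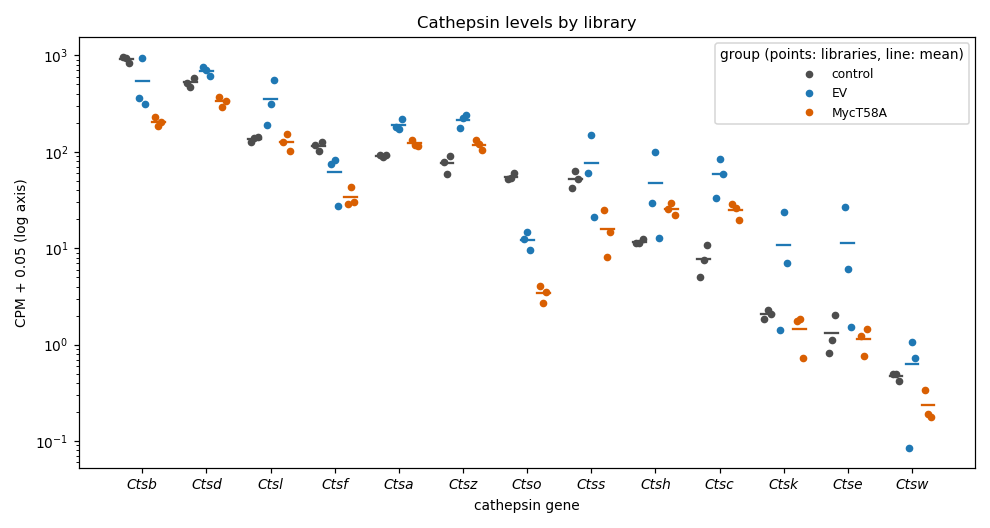
Level of the 13 tested cathepsins in each library as CPM + 0.05 on a log axis (points: libraries, lines: group means). MycT58A points lie below the control points for Ctsb, Ctsd, Ctsf, Ctso, Ctss and Ctsw, and the EV points are the most scattered, as for Ctse (1.47 to 26.6 CPM) and Ctsk (1.37 to 23.7 CPM).

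Ctsc, the cathepsin that activates serine proteases of immune cells, was at 4.94, 7.53 and 10.7 CPM in control, 33.4, 83.4 and 58.9 in EV tumours and 28.7, 26 and 19.7 in MycT58A tumours. All tumour values lay above control, and it rose 7.58-fold (log2 fold change 2.92 ± 0.41 SE, edgeR adjusted p = 0.000538) and 3.22-fold (1.69 ± 0.40 SE, edgeR adjusted p = 0.0057). Ctsz, a carboxypeptidase, was at 78.6, 59.1 and 89.4 CPM in control, 176, 224 and 239 in EV tumours and 131, 121 and 105 in MycT58A tumours. Ctsa, the protective protein that keeps beta-galactosidase and neuraminidase stable, was at 91.7, 87.3 and 93.6 CPM in control, 182, 172 and 219.9 in EV tumours and 134, 119 and 115 in MycT58A tumours. For both genes the 3 groups were fully apart, with EV highest and MycT58A between EV and control. In EV tumours Ctsz rose 2.82-fold and Ctsa 2.10-fold (edgeR adjusted p = 0.000592 and 0.000762). The smaller rises in MycT58A tumours, 1.57-fold and 1.35-fold (edgeR adjusted p = 0.025 and 0.0436), were lost without control replicate 1 or 2 or MycT58A replicate 1 or 2, and that of Ctsa also without control replicate 3 or MycT58A replicate 3 (log2 fold change 0.51 to 0.69 for Ctsz and 0.37 to 0.49 for Ctsa, adjusted p 0.0624 to 0.144).

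Ctsl, an endopeptidase of broad expression, was at 126, 138 and 144 CPM in control, 191, 314 and 551 in EV tumours and 126, 153 and 101 in MycT58A tumours. It was 2.59-fold higher in EV tumours (edgeR adjusted p = 0.0111), where all 3 libraries lay above control (1.87-fold without the library labelled EV replicate 3), and had a log2 fold change -0.10 ± 0.35 SE in MycT58A tumours, where it overlapped control. Ctsh, an aminopeptidase, was at 11.3, 11.3 and 12.3 CPM in control, 29.4, 100.2 and 12.7 in EV tumours and 25.3, 29.3 and 22.1 in MycT58A tumours. Its rise in EV tumours (4.07-fold, edgeR adjusted p = 0.0235) was 1.82-fold without EV replicate 2 and was lost without any 1 control library (log2 fold change 2.01 to 2.08, adjusted p 0.0588 to 0.0661). Ctse, an aspartic protease of endosomes, was at 0.776, 1.06 and 1.96 CPM in control, 26.6, 6.07 and 1.47 in EV tumours and 1.19, 0.71 and 1.41 in MycT58A tumours. Ctsk, the collagen-degrading cathepsin of osteoclasts and fibroblasts, was at 1.80, 2.26 and 2.01 CPM in control, 1.37, 23.7 and 6.92 in EV tumours and 1.73, 1.81 and 0.682 in MycT58A tumours.

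For Ctse and Ctsk the EV libraries overlapped control, and 1 library carried most of each rise. The 8.99-fold rise of Ctse (edgeR adjusted p = 0.0199) was 2.99-fold without EV replicate 1, and the call was lost there (edgeR adjusted p = 0.0842). It was also lost without control replicate 1 or 2, where the log2 fold change of Ctse was 2.94 and 3.08 (edgeR adjusted p = 0.0692 and 0.0668). The 5.27-fold rise of Ctsk (edgeR adjusted p = 0.0438) was 2.04-fold without EV replicate 2, and the call was lost there and without any 1 of the control or MycT58A libraries (log2 fold change 1.03 to 2.49, adjusted p 0.0531 to 0.213). EV replicate 2 was the highest EV library for Ctsk, Ctsh, Ctsc and Ctss, and also for Ctsb, Ctsf, Ctso and Ctsw. Ctsl, Ctsz and Ctsa were highest in the library labelled EV replicate 3, and Ctsd and Ctse in EV replicate 1. EV replicate 2 also had the highest sums of the microglia and fibroblast markers given above, whose part was not tested.

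Ctso (chr3:81932601-81956725 in mm10, + strand), a cysteine protease of wide expression, was the cathepsin that fell in both kinds of tumour. It was at 51.8, 54.1 and 60.1 CPM in control, 12.5, 14.6 and 9.58 in EV tumours and 4.03, 2.63 and 3.50 in MycT58A tumours. The 3 groups were fully apart. The fall was 4.52-fold in EV tumours (log2 fold change -2.18 ± 0.25 SE, edgeR adjusted p = 0.000197) and, with MycT58A, 16.3-fold (-4.03 ± 0.27 SE, edgeR adjusted p = 2.28e-05). Ctsb, the most abundant cathepsin transcript of control by CPM, was at 967, 928 and 832 in control, 364, 936 and 313 in EV tumours and 229.5, 184 and 202 in MycT58A tumours. It fell 4.43-fold in MycT58A tumours (edgeR adjusted p = 0.00186) and had a log2 fold change of -0.76 ± 0.39 SE in EV tumours (edgeR adjusted p = 0.125), where EV replicate 2 reached the control range. Without EV replicate 2 Ctsb was 2.67-fold lower in EV tumours and passed (edgeR adjusted p = 0.000195). Ctsb took 48.0%, 48.2% and 41.4% of the cathepsin counts in control, 19.1%, 33.2% and 15.1% in EV tumours and 20.7%, 18.8% and 21.2% in MycT58A tumours.

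Ctsd, the main aspartic protease of the lysosome, was at 522, 472 and 586 CPM in control, 749, 709 and 609 in EV tumours and 371, 293 and 336 in MycT58A tumours. The groups did not overlap, with EV above and MycT58A below control. It passed the test in MycT58A tumours (1.58-fold lower, edgeR adjusted p = 0.0137) and not in EV tumours (log2 fold change 0.39 ± 0.19 SE, edgeR adjusted p = 0.103), and the call was lost without control replicate 3 or MycT58A replicate 2 or 3 (-0.66 to -0.56, adjusted p 0.0512 to 0.0676). Ctsf, a brain-expressed cysteine cathepsin, was at 117, 103 and 127 CPM in control, 73.9, 81.6 and 27.4 in EV tumours and 28.4, 43.4 and 30.2 in MycT58A tumours, 3.40-fold lower in the latter (edgeR adjusted p = 0.00401). Ctss, a cathepsin of microglia and macrophages, was at 42.3, 63.2 and 52.2 CPM in control, 59.5, 151 and 20.9 in EV tumours and 24.9, 8.02 and 14.7 in MycT58A tumours. It was 3.31-fold lower in MycT58A tumours (edgeR adjusted p = 0.0491), a call lost without any 1 control library, EV replicate 1 or MycT58A replicate 2 or 3 (log2 fold change -1.86 to -1.40, adjusted p 0.0615 to 0.143). Ctsw, known from cytotoxic lymphocytes, stayed under 1.03 CPM in every library and passed no comparison.

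Per kilobase of exon, Ctsd was the highest cathepsin in every group, at 224 ± 24.4 (SD, n = 3), 293 ± 30.6 and 142 ± 16.8 CPM per kilobase in control, EV and MycT58A tumours. In control Ctsb followed at 150.3 ± 11.5 and Ctsz at 52.5 ± 10.7. In EV tumours Ctsz followed at 148 ± 22.8, then by mean Ctsb at 88.8 ± 57.2 and Ctss at 56.8 ± 49.2. These SDs are spreads over libraries, so their overlap does not settle the order of genes within a library. In MycT58A tumours Ctsz was at 82.5 ± 9.39, Ctsb at 33.9 ± 3.76 and Ctsa at 26.0 ± 2.15. Lengths are those of the union of annotated exons, so a gene with many rarely used exons appears lower.

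Among the glycosidases Gusb and Glb1 rose and Gaa fell in both kinds of tumour. Gusb, beta-glucuronidase, was at 10.7, 12 and 13.5 CPM in control, 68.5, 82.8 and 130.4 in EV tumours and 98.5, 81.7 and 75.6 in MycT58A tumours. All tumour values were above control, and the rise was 7.77-fold (log2 fold change 2.96 ± 0.28 SE, edgeR adjusted p = 7.97e-05) and 7.05-fold (2.82 ± 0.27 SE, edgeR adjusted p = 8.06e-05). Glb1, beta-galactosidase, was at 14.9, 13.2 and 12.7 CPM in control, 23, 31 and 15.1 in EV tumours and 32.2, 35.1 and 26.4 in MycT58A tumours. It was 2.29-fold higher in MycT58A tumours (edgeR adjusted p = 0.00578) and 1.69-fold in EV tumours (edgeR adjusted p = 0.0444), where the call was lost in 8 of 9 fits with 1 library left out, all but that without the library labelled EV replicate 3 (log2 fold change 0.50 to 0.85, adjusted p 0.0599 to 0.104). Gaa, the acid alpha-glucosidase that degrades glycogen, was at 244, 239 and 294 CPM in control, 201, 157 and 123 in EV tumours and 94, 98 and 83.2 in MycT58A tumours. It fell 1.61-fold (edgeR adjusted p = 0.022) and 2.82-fold (edgeR adjusted p = 0.000485), the first being lost without control replicate 1 or 3 or the library labelled EV replicate 3 (log2 fold change -0.70 to -0.51, adjusted p 0.0549 to 0.0971). Hexa, the alpha chain of beta-hexosaminidase, was at 40.6, 42.2 and 45.6 CPM in control, 78.9, 115 and 33.8 in EV tumours and 26.6, 29.3 and 23 in MycT58A tumours, and passed in neither comparison with control.

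Of the membrane proteins, Lamp2 rose and Lamp1 did not pass. Lamp2, the LAMP protein with a role in chaperone-mediated autophagy, was at 129, 136 and 129 CPM in control, 395, 594 and 456 in EV tumours and 229, 229 and 276 in MycT58A tumours. The groups were fully apart, and it rose 3.67-fold (edgeR adjusted p = 0.000149) and 1.86-fold (edgeR adjusted p = 0.00416). Lamp1, the other major LAMP protein and the gene with 4 CACGTG matches, was at 629, 579.6 and 606 CPM in control, 334, 879 and 540.3 in EV tumours and 541, 466 and 472 in MycT58A tumours, with log2 fold changes of -0.05 ± 0.32 SE and -0.29 ± 0.32 SE. Mcoln1, the lysosomal calcium channel TRPML1, was at 65.1, 47.9 and 53.2 CPM in control, 15.2, 49.9 and 29 in EV tumours and 25.4, 26.3 and 23 in MycT58A tumours. It was 2.23-fold lower in MycT58A tumours (edgeR adjusted p = 0.0263), a call lost without control replicate 1 or 3 or any 1 MycT58A library (log2 fold change -1.19 to -1.01, adjusted p 0.0553 to 0.0814). Cln3, mutated in juvenile Batten disease, held 8.95 to 11.9 CPM in control, 11.6, 25.5 and 3.86 in EV tumours and 12.2 to 15.8 in MycT58A tumours and passed no comparison.

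Psap, Grn and Sqstm1 each had a pattern of their own. Psap (chr10:60277627-60302597 in mm10, + strand), the precursor of the saposins that help degrade sphingolipids, was at 2540.2, 2384 and 2353 CPM in control, 955, 1452 and 362 in EV tumours and 364, 278 and 315 in MycT58A tumours. It fell 2.63-fold (edgeR adjusted p = 0.0222) and 7.60-fold (edgeR adjusted p = 0.000687), and the call in EV tumours was lost without control replicate 1 or EV replicate 1 (log2 fold change -1.42 to -1.34, adjusted p 0.0503 to 0.0536). It was the highest of the 44 genes per kilobase in control, at 884 ± 36.6 (SD, n = 3), and in MycT58A tumours, at 116 ± 15.7, it came after Lamp1 at 184 ± 15.6 and Ctsd at 142 ± 16.8. Grn, the precursor of the granulins, was at 61, 57.8 and 70.6 CPM in control, 289, 377 and 224 in EV tumours and 110.1, 98.6 and 97.7 in MycT58A tumours. All 3 groups were apart, with a rise of 4.70-fold in EV tumours (edgeR adjusted p = 0.000104) and, with MycT58A, of 1.62-fold (edgeR adjusted p = 0.02), the latter lost without control replicate 1 or 2 or MycT58A replicate 1 (log2 fold change 0.64 to 0.68, adjusted p 0.0557 to 0.066). Sqstm1, the autophagy receptor p62, was at 479, 342 and 426 CPM in control, 438, 392 and 403 in EV tumours and 164, 175 and 149.8 in MycT58A tumours. EV tumours overlapped control, and MycT58A tumours were 2.55-fold below it (log2 fold change -1.35 ± 0.19 SE, edgeR adjusted p = 0.000381).

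The MiT/TFE factors were expressed in every library. Tfeb was at 16.7, 14.5 and 15.8 CPM in control, 28.9, 30.9 and 56.9 in EV tumours and 20.8, 18.7 and 14.4 in MycT58A tumours. It was 2.48-fold higher in EV tumours (log2 fold change 1.31 ± 0.30 SE, edgeR adjusted p = 0.00594), with all 3 libraries above control, and overlapped control in MycT58A tumours (0.20 ± 0.30 SE). Without the library labelled EV replicate 3, the highest for Tfeb, the rise in EV tumours was 0.95 on the log2 scale (edgeR adjusted p = 0.00628). Tfe3 was at 44.5, 40.5 and 39.4 CPM in control, 68.6, 71.4 and 51.3 in EV tumours and 41.3, 44 and 42.1 in MycT58A tumours. It was 1.54-fold higher in EV tumours (edgeR adjusted p = 0.0172), a call lost without control replicate 3 (log2 fold change 0.62, adjusted p 0.0517). Mitf was at 6.82, 8.46 and 4.99 CPM in control, 3.90, 3.31 and 9.01 in EV tumours and 1.73, 2.06 and 2.13 in MycT58A tumours, 3.42-fold below control in the latter (edgeR adjusted p = 0.00837). These are transcript levels, and the activity of these factors is set largely by their entry into the nucleus, which was not measured.

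MycT58A tumours were compared with EV tumours by label. Transcripts of Myc itself were 2.19-fold higher with MycT58A, but the libraries overlapped and Myc was not called (edgeR adjusted p = 0.592). The comparison therefore does not set low Myc against high Myc in every library. None of the 44 genes was called higher and 9 were called lower: Ctso, Grn, Hexa, Ctsl, Sqstm1, Ctsd, Lamp2, Ctsz and Ctsa. Of all 15171 genes, 3.28% were called higher and 5.02% lower (8.30% in either direction). At an unadjusted p under 0.05 the lysosomal genes numbered 0 higher and 23 lower (52.3% of 44, beside 31.1% of all genes in either direction). DESeq2 called 0 higher and 23 lower, limma-voom 0 and 9. Shares over all genes are given for edgeR only, so the DESeq2 and limma-voom counts cannot be compared with them. The log2 fold change was below 0 for 39 of the 44 genes, with a median of -0.82, beside -0.04 over all genes. All 3 MycT58A libraries lay below all 3 EV libraries for 20 of the 44, beside 13.6% of all genes.

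**Figure D4:**
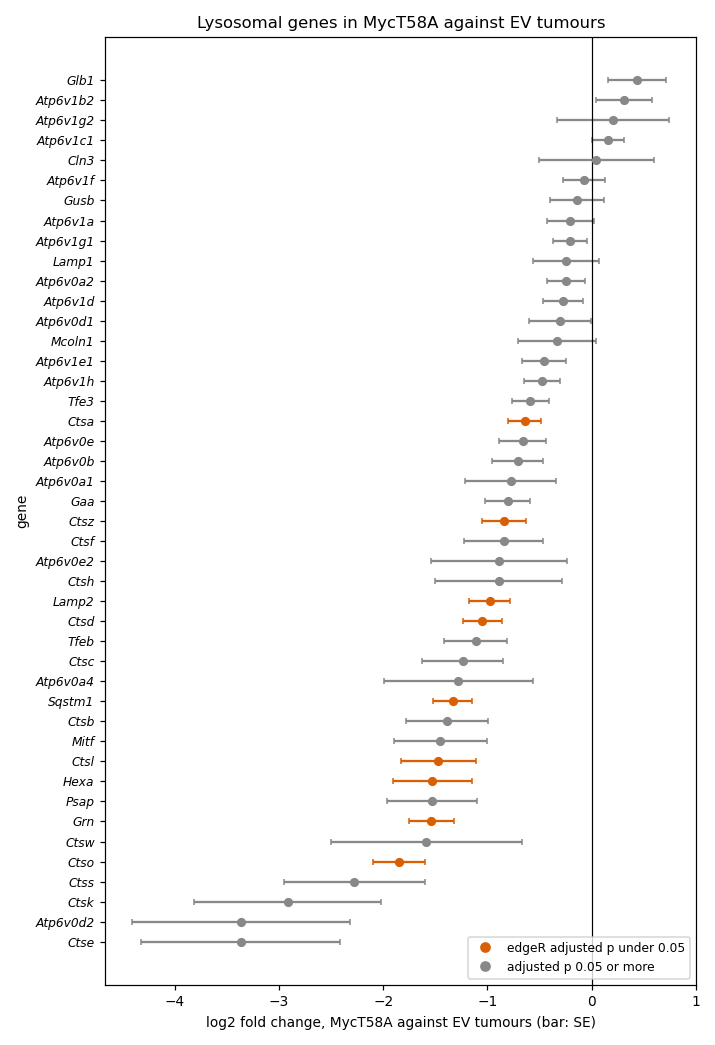
Log2 fold change of MycT58A against EV tumours for the 44 tested lysosomal genes, ordered by size, with the SE as a bar and the 9 genes past an edgeR adjusted p of 0.05 in orange. All 9 lie between -1.85 and -0.64, and the genes with the lowest values (Ctse and Atp6v0d2, both -3.37) have wide SEs and did not pass.

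By role, 5 of 13 cathepsins, 1 of 4 glycosidases (Hexa), 1 of 4 membrane proteins (Lamp2), 2 of the 3 other proteins (Grn and Sqstm1), none of 3 MiT/TFE factors and none of 17 V-ATPase subunits were called lower. Ctso was 3.61-fold lower (log2 fold change -1.85 ± 0.25 SE, edgeR adjusted p = 0.00963), Grn 2.90-fold (-1.54 ± 0.22 SE, edgeR adjusted p = 0.0109) and Sqstm1 2.52-fold (-1.33 ± 0.19 SE, edgeR adjusted p = 0.0108). Ctsd was 2.07-fold lower (-1.05 ± 0.19 SE, edgeR adjusted p = 0.02) and Lamp2 1.97-fold lower (-0.98 ± 0.20 SE, edgeR adjusted p = 0.0268). Hexa (2.88-fold), Ctsl (2.77-fold), Ctsz (1.79-fold) and Ctsa (1.56-fold) had edgeR adjusted p between 0.0433 and 0.0463. The 3 MycT58A libraries lay below the 3 EV libraries for each of the 9 genes. Of the genes that did not pass, Tfeb had a log2 fold change of -1.11 ± 0.30 SE (edgeR adjusted p = 0.0538), Gaa -0.81 ± 0.21 SE (edgeR adjusted p = 0.0521), Psap -1.53 ± 0.43 SE (edgeR adjusted p = 0.0603) and Ctsb -1.39 ± 0.39 SE (edgeR adjusted p = 0.0621). Without EV replicate 2 the value of Ctsb was -0.72 and passed (edgeR adjusted p = 0.0226), and without the library labelled EV replicate 3 Tfeb was at -0.74 (edgeR adjusted p = 0.0393) and Psap at -1.91 (edgeR adjusted p = 0.0024). The lowest values each rested on 1 library, since Ctse, at -3.37, was at -1.77 without EV replicate 1 and Atp6v0d2, also at -3.37, was at -1.87 without the library labelled EV replicate 3.

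For V-ATPase subunits 4 genes had an unadjusted p under 0.05, all lower in MycT58A tumours, a share of 23.5% that lies below the 31.1% of all genes. DESeq2 called 4 lower and limma-voom none, with no share over all genes given for either method. Their median log2 fold change was -0.30, beside -1.11 for the 27 other tested members and -0.04 over all genes. Atp6v1a was at 0.869 of its EV level and Atp6v1c1 1.12-fold higher, with log2 fold changes of -0.20 ± 0.23 SE and 0.16 ± 0.15 SE.

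How many genes passed moved with the libraries in the fit. The number called lower was 4 without any 1 control library, 15, 15 and 19 without EV replicates 1, 2 and 3, and 1, 0 and 0 without MycT58A replicates 1, 2 and 3. With only the EV and MycT58A libraries in the fit it was 0. Without any 1 MycT58A library, the calls of Ctsd, Grn and Sqstm1 were lost at edgeR adjusted p of 0.0569 to 0.102, that of Ctso at 0.0533 to 0.0666 without replicate 2 or 3. Those of Ctsl, Lamp2, Ctsa and Ctsz were lost without any 1 MycT58A or control library (0.0565 to 0.171), and that of Hexa also without EV replicate 1 or 2 (0.0521 to 0.160). In each of the 9 fits with 1 library left out the 9 genes had log2 fold changes below 0, down to -2.0 and up to -0.53. Because their MycT58A libraries all lay below the EV libraries, this sign was largely fixed in advance and adds nothing to the calls. The 5 cathepsins called lower were 10 with DESeq2, 2 without the low-count filter, 0 with only the EV and MycT58A libraries, and 0 to 10 with 1 library left out. Without the library labelled EV replicate 3, Ctsl had a log2 fold change of -0.98 and stayed called.

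Other measures moved along with this comparison. Of the 19 microglia and macrophage markers 5 were called lower in MycT58A tumours (26.3%, beside 5.02% of all genes). A log2 fold change below 0 was found for 18 of them, with a median of -1.99. Of the 12 pericyte and fibroblast markers 2 were called lower (16.7%) and all 12 were below 0, with a median of -2.33. Their part in the lower lysosomal levels was not tested. Over the EV libraries the median CV of the 44 genes was 39.6%, against 11.6% in MycT58A and 9.92% in control. The CV was larger in EV than in MycT58A tumours for 38 of 44 genes (86.4%), beside 85.7% of all genes, so the spread of the lysosomal genes is near that of the rest. EV replicate 2 was the highest EV library for 28 of the 44 genes (63.6%), beside 40.2% of all genes.

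Genes with and without a CACGTG match had calls in both directions. Of the 13 genes with a match, 4 were higher and 4 lower in EV tumours, 3 higher and 7 lower in MycT58A tumours, both against control, and 3 were lower in MycT58A than in EV tumours (Ctsa, Ctsd and Ctsl). Of the 21 tested genes with a window and no match, the counts were 9 and 7, then 5 and 11, then 6 lower. Among all genes 30.7% were called higher and 26.3% lower in EV tumours, 31.2% and 31.0% in MycT58A tumours, and 5.02% lower between the tumours. Counts near these shares are no result about genes with or without a match. The median log2 fold changes of the 13 were -0.05, -0.66 and -0.64, and those of the 21 were 0.55, -0.74 and -1.11. No test was made of this difference.

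Other lysosomal genes came from lists chosen with earlier results of these data known. Among all genes the shares called were 30.7% higher and 26.3% lower in EV tumours, 31.2% and 31.0% in MycT58A tumours and, between the tumours, 3.28% and 5.02%, and counts near these are no result about a list. Of 32 further hydrolases, 10 rose and 6 fell in EV tumours, 4 rose and 10 fell in MycT58A tumours against control, and 3 were lower in MycT58A than in EV tumours. Scpep1, a serine carboxypeptidase, rose from 18.1 to 24.6 CPM in control to 159, 58.6 and 154 in EV tumours and 151 to 169 in MycT58A tumours. Ids, iduronate sulfatase, fell from 214 to 285 CPM in control to 20.6 to 60.1 in EV tumours and 32.6 to 43.1 in MycT58A tumours. Of 20 tested genes of lysosomal membranes and sorting, 5 rose and 3 fell, 4 rose and 7 fell, and 3 were lower between the tumours, among them Cd68, a lysosomal protein typical of macrophages, at 3.80 to 4.43 CPM in control, 21.3 to 26.7 in EV tumours and 5.75 to 8.81 in MycT58A tumours. The sorting receptor Sort1 fell in both kinds of tumour (edgeR adjusted p = 0.000195 and 5.37e-05), as did Scarb2, a lysosomal membrane protein (edgeR adjusted p = 0.00355 and 0.000627). Clcn7, the lysosomal chloride transporter, was at 46.3 to 47.1 CPM in EV and 25.3 to 27.5 in MycT58A tumours (edgeR adjusted p = 0.0251).

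The V-ATPase accessory subunits Atp6ap1 and Atp6ap2 fell in both kinds of tumour, and Atp6ap1, at 484, 389 and 451 CPM in control, 188, 321 and 177 in EV tumours and 116, 117 and 90.6 in MycT58A tumours, was also called lower in MycT58A than in EV tumours (edgeR adjusted p = 0.0423). Of the 11 tested regulators of the MiT/TFE factors, 1 rose and 3 fell in EV tumours and 3 fell in MycT58A tumours, with none called between the tumours (0 at an unadjusted p under 0.05). Fnip1, a partner of folliculin, was the one of smallest p, at 72.3 to 76.2 CPM in control, at most 35.8 in EV tumours and 21.6 to 32.1 in MycT58A tumours. Flcn, folliculin itself, and Rraga, a Rag GTPase, also fell in both, and Rragd and Lamtor5 had the smallest p between the tumours without passing. Of 14 autophagy genes, 3 rose and 4 fell, 2 rose and 7 fell, and 2 were lower in MycT58A than in EV tumours, namely Optn and Gabarap. Gabarapl1, which coats autophagosomes, fell from 443 to 528 CPM in control to 61.7 to 131 in EV tumours and 63.0 to 73.4 in MycT58A tumours, Map1lc3a, a relative of it, fell in both, and Wipi1, which binds early autophagosome membranes, rose in both. Optn, an autophagy receptor like Sqstm1, was at 26.2 to 33.3 CPM in control, 72.2, 49.8 and 45.0 in EV tumours and 11.0, 12.5 and 8.40 in MycT58A tumours (log2 fold change between the tumours -2.39 ± 0.26 SE, edgeR adjusted p = 0.00598). Of 4 cathepsin inhibitors, 2 rose in EV tumours, Cst7 among them at 0.907 CPM or more (control at most 0.373), and Cst3, the most abundant, passed no comparison. Cst6 fell in both kinds of tumour and was lower in MycT58A than in EV tumours (6.34 to 6.77 CPM in control, 0.617 to 1.53 in EV tumours, 0.144 at most in MycT58A tumours).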

How the data were processed

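The data are read counts for 9 mouse RNA-seq libraries. The authors deposited them as whole-number counts by gene symbol. Tools listed per the submitters' processing notes are bcl2fastq, TopHat and edgeR, with build mm10. For the counter, annotation, versions and strand setting the entry is: not given in the sources used here. Exons of 21 members overlap another gene in GENCODE vM21. Ctsd overlaps Gm49369 on the same strand over 34.4% of its exon bases. On the opposite strand Ctsl overlaps Gm47123 over 26.8% and Sqstm1 overlaps Mrnip over 17.3%. As the strand setting is not given, whether reads in bases shared by opposite strands were told apart is not known.

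With edgeR 4.0.16 under R 4.3.3, filterByExpr (minimum count 10, minimum total 15) left 15171 genes. After TMM scaling, a quasi-likelihood fit gave each group its own mean over all 9 libraries (6 residual degrees of freedom). P-values were adjusted by Benjamini-Hochberg across these genes, and 0.05 was the threshold. Each SE is the absolute log2 fold change divided by the square root of F. CPM is counts over the kept total times the TMM factor, and values per kilobase divide it by the union of annotated exons. Isoform ratios had 0.5 counts added to each gene. The test was checked on simulated counts with 1 spread for all genes and groups. In the data the median CV over all genes was 12.2% in control, 44.2% in EV tumours and 14.3% in MycT58A tumours. The check therefore does not show how the test behaves under unequal spread.

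Groups come from the labels, and replicate numbers follow accession order. The members and lists were chosen with earlier results of these data known. Values per library were set by rule for the 4 highest and 4 lowest called log2 fold changes of each comparison (at least 5 CPM in the higher group), the MiT/TFE factors, both genes of each isoform pair, the 2 members of smallest p of each role and every call in MycT58A against EV tumours. Values of the remaining members were added after they were seen. Of each pathway list the 2 of smallest p in each comparison are named, except that some hydrolases are not reported here, and the epithelial genes were picked after their values were seen. Alternatives tried were scaling by RLE or by library size, no filter, a floor of 1 CPM throughout a group, fits of just the groups compared, DESeq2 1.42.0, limma-voom (limma 3.58.1) and leaving out each library. Voom with weights per group was added after the data were seen. Figures used matplotlib 3.10.9. Floors cover counting error only.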

Additional observations from a re-analysis of the deposited data

How the results depend on the processing

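No paired analysis was possible because the labels give no replicate numbers. Each gene has 1 dispersion for all groups, so calls between the tumours rest partly on the spread of the controls, and 3 libraries a group limit every test. Scaling by library size moved the median difference in log2 CPM (prior count 2) over all genes in MycT58A against EV tumours from 0.063 to -0.062. Under every alternative in which the gene was tested, 19 of 31 calls in EV tumours against control, 24 of 31 in MycT58A tumours against control and 0 of 9 in MycT58A against EV tumours were kept, and none of these calls changed direction. The 19 include Atp6v0d2, which was not tested with the floor of 1 CPM.

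The number of members called lower in MycT58A against EV tumours, 9 with all groups fitted, was 0 with only the 2 groups compared, 23 with DESeq2, 6 without the low-count filter, 3 with weights per group, and 0 to 19 with 1 library left out. The fit of 2 groups holds fewer libraries and here leaves out the controls, and the cause of none of these differences was tested. In MycT58A tumours against control, the fit of 2 groups gave 9 members higher and 26 lower, beside 8 and 23 with all groups fitted. The number lower in EV tumours against control, 15, was 9 with only the 2 groups compared and 9 to 19 with 1 library left out, and the number higher, 16, was 11 to 17. Against control, MycT58A tumours had 5 to 9 members higher and 19 to 24 lower with 1 library left out. No member was called higher in MycT58A against EV tumours with any library left out.

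Some members that were not called changed sign. Scaled by library size, the log2 fold change was -0.089 for Cln3 in MycT58A against EV tumours, 0.0066 for Lamp1 and 0.023 for Sqstm1 in EV tumours against control and -0.059 for Tfe3 in MycT58A tumours against control. With RLE scaling or DESeq2 Tfe3 was at -0.021. Without the low-count filter Lamp1 was at 0.022 and Sqstm1 at 0.075, and with the filter of 1 CPM Sqstm1 was at 0.025. With only the 2 groups compared Cln3 was at -0.0084 and Sqstm1 at 5.0e-06. Ctsw in EV tumours against control was at -0.50 with limma-voom and -0.53 with weights per group. With 1 library left out, log2 fold changes in MycT58A against EV tumours ranged from -1.06 to 0.013 for Atp6v0a1, -0.57 to 0.057 for Atp6v0d1, -1.38 to 0.14 for Atp6v0e2, -0.24 to 0.12 for Atp6v1f, -0.28 to 0.70 for Atp6v1g2, -0.39 to 0.86 for Cln3, -1.33 to 0.28 for Ctsh, -0.32 to 0.17 for Gusb, -0.52 to 0.18 for Lamp1 and -0.66 to 0.18 for Mcoln1. In EV tumours against control they ranged from -0.43 to 0.82 for Cln3, -0.38 to 1.01 for Ctss, -0.34 to 1.01 for Ctsw, -0.46 to 0.23 for Lamp1 and -0.11 to 0.13 for Sqstm1, and in MycT58A tumours against control from -0.45 to 0.27 for Ctse and -0.25 to 0.047 for Ctsl. Isoform log2 ratios in MycT58A against EV tumours ranged from -0.13 to 0.61 for Atp6v0a2 over Atp6v0a1, -0.77 to 0.40 for Tcirg1 over Atp6v0a1, -0.76 to 1.30 for Atp6v0e2 over Atp6v0e and -0.13 to 1.07 for Atp6v1g2 over Atp6v1g1.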
